A study of Homo sapiens with 13 samples.

Results

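The respiratory chain and the citric acid cycle were followed in myeloma cells in which IRF4 was silenced. Genes were taken by symbol, older symbols included: the NDUF, UQCR, COX (numbered) and ATP5 families, the SDH, PDH, SUCL, IDH2 and IDH3, ACO and MDH genes, and CYCS, CYC1, CS, FH, OGDH, DLD, DLST and DLAT. The array annotation held 37 such genes, and 35 of them had at least 1 feature with a value on 7 or more of the 13 arrays, out of 6948 named genes and unnamed features that met the same minimum. The 2 genes left out by that minimum were OGDH and UQCRC1. The 35 genes were 5 subunits of complex I, 1 of complex II, 2 of complex III, cytochrome c, 3 subunits of complex IV, 6 of ATP synthase, 4 genes of the pyruvate dehydrogenase complex, 9 of the citric acid cycle and its isoenzymes (the cytosolic MDH1 and the NADP-dependent IDH2 among them) and 4 assembly factors of cytochrome c oxidase. Of these, 17 genes had 2 or more features, which were averaged, and 18 had 1.

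Each of the 13 spotted cDNA arrays compared 2 infected cultures of a myeloma line, the culture with a hairpin RNA against IRF4 in the red dye Cy5 and the culture with a control hairpin against luciferase (shluc) in the green dye Cy3. Both hairpins were switched on with doxycycline at 20 ng/ml, and the control culture of each array carried shluc and was taken at the same time as its partner. In the line KMS12 there were 3 arrays at days 2-3 and 3 at days 4-5, against 3 uninduced arrays, in culture series named 1332, 1332b and 2046. Series 1332 was sampled at days 3 and 5 and also at day 7 (1 array), and series 1332b and 2046 at days 2 and 4. H929 had 2 arrays and SKMM1 had 1, all with hairpin 2046 at day 4, and neither had an uninduced array. All 3 lines are established human lines derived from multiple myeloma, a cancer of plasma cells. All values below are log ratios, taken as log2, of the IRF4 hairpin culture over its control, centred on the median of each array, so a value below 0 means less mRNA, relative to the median gene, in the cells with the IRF4 hairpin. In such bulk RNA, fewer cells of a type and less RNA per cell cannot be told apart. The labels do not say whether arrays of a group stem from independent infections. The p-values therefore measure only how far these arrays differ, and that spread may be technical.

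As background, the pyruvate dehydrogenase complex turns pyruvate into acetyl-CoA, which citrate synthase feeds into the citric acid cycle. The cycle passes electrons to NADH and to succinate dehydrogenase, and complexes I to IV hand them through ubiquinone and cytochrome c to oxygen while they pump protons, which drive ATP synthase. Nearly all of these proteins are encoded in the nucleus and imported into mitochondria. Plasma cells, which secrete large amounts of immunoglobulin, have a high demand for energy. The transcription factor IRF4 directs plasma cell differentiation, and myeloma lines depend on it.

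IRF4 itself had log2 ratios of -1.23, -1.83 and -0.89 at days 2-3 and of -0.68, -0.85 and -0.73 at days 4-5, against 0.32, 0.14 and 0.36 on the uninduced arrays. It stood at -0.74 at day 7, at -1.84 and -2.03 in H929 and at -2.09 in SKMM1, so every induced array showed less IRF4 mRNA than its control. The uninduced array of series 2046 stood apart from the others: the features measured on all 13 arrays had a median of 0.37 there and those measured on 7 to 9 arrays had -0.41. The same medians were 0.09 and -0.46 on the uninduced array of series 1332 and 0.04 and -0.03 on that of series 1332b. The pathway's genes were among the often measured features (50% of their kept features had a value on all 13 arrays, against 28.5% of all kept features), and their own median was 0.56 on that array. The members' counts and medians against the uninduced arrays are therefore also given without it. The differences of single genes against the uninduced arrays include it. Of 9 plasma cell markers all were measured, with medians of -0.68, -0.65 and -0.19 at days 2-3 and of -0.20, -0.51 and -0.15 at days 4-5, against 0.14, 0.00 and 0.26 uninduced. Of the markers of other cells, 6 of 7 of earlier B cells, 6 of 8 of T cells, 3 of 6 of myeloid cells and 4 of 6 of erythroid or stromal cells were measured. The T cell medians ranged from -0.22 to 0.30 at days 2-3, against -0.18 to 0.03 uninduced, and those of earlier B cells from -0.02 to 0.46, against -0.52 to -0.11. The myeloid medians ranged from -0.48 to 0.53 at days 2-3, against -0.21 to 0.11 uninduced, and the erythroid and stromal ones from 0.27 to 0.42, against -0.31 to 0.02. A ratio does not show whether a marker was present at all, and the part of these shifts in the results below was not tested.

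**Figure D1:**
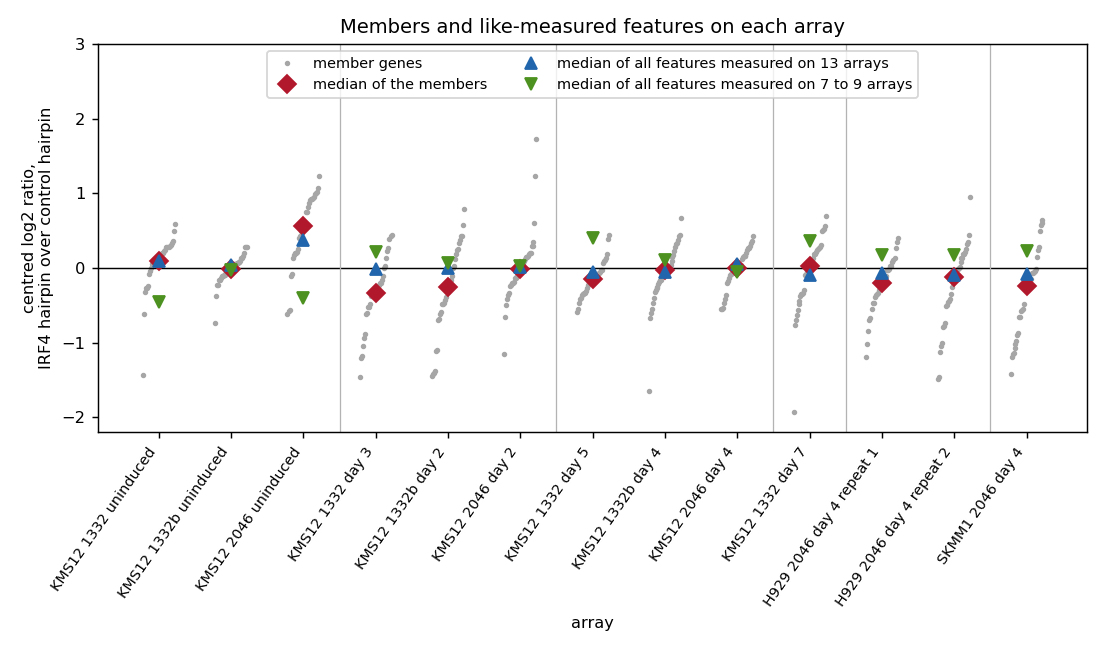
Centred log2 ratios (vertical axis) on each of the 13 arrays (horizontal axis) of the pathway's genes (grey points, sorted within an array), their median (diamonds), and the medians of all features measured on 13 arrays (upward triangles) and on 7 to 9 arrays (downward triangles). On the uninduced array of series 2046 the genes' median is 0.56 and the median of features measured on all 13 arrays is 0.37.

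**Figure D2:**
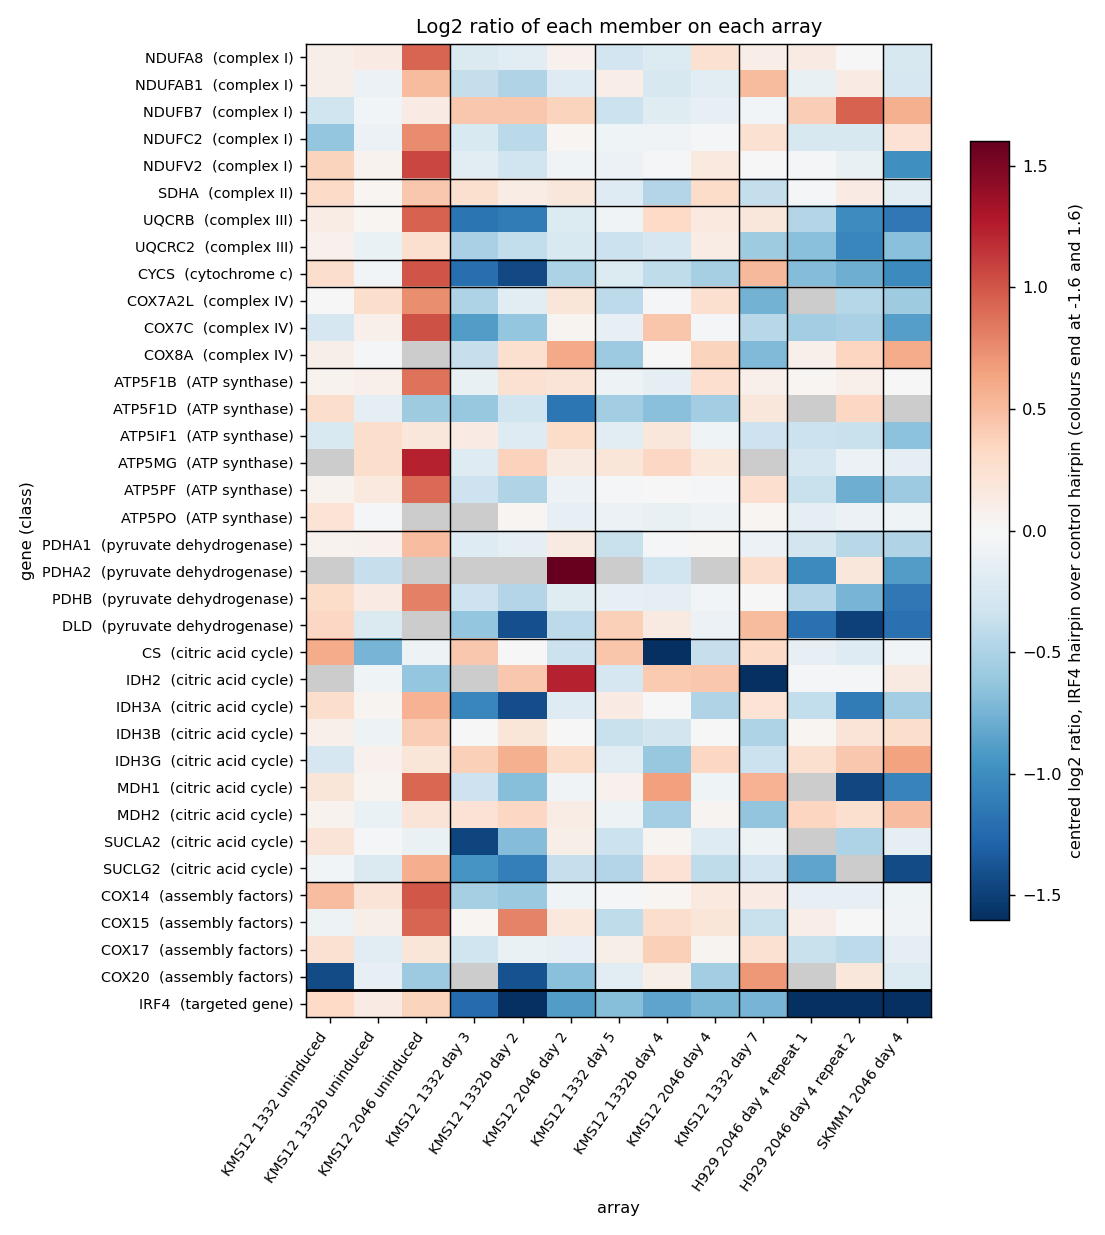
Centred log2 ratio of each of the 35 genes and of IRF4 (rows, with class) on each array (columns, KMS12 in order of time, then H929 and SKMM1). Blue is below 0, red above 0 and grey not measured. CYCS (-1.21 and -1.44), UQCRB (-1.17 and -1.12) and IDH3A (-1.04 and -1.42) are deep blue at day 3 of series 1332 and day 2 of series 1332b, and DLD is so in H929 (-1.20 and -1.49) and SKMM1 (-1.19).

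At days 2-3 of the IRF4 hairpin in KMS12, most genes of the pathway lay below their uninduced level, deepest for cytochrome c (CYCS), the complex III subunit UQCRB and the catalytic subunit of NAD-dependent isocitrate dehydrogenase (IDH3A), but no single gene passed the test against the uninduced arrays. Of the 34 genes measured on at least 2 arrays of each window, 26 lay below, against 48.7% of all 5980 genes tested, and their median difference was -0.48, against 0.02 for all genes. For the 2235 other genes with a feature on all 13 arrays, 57.6% lay below and the median was -0.10. The lower values at days 2-3 did not overlap the uninduced ones in 13 genes (18.2% of all genes), and the higher values did not overlap in 3 (15% of all genes). Among those 2235 other genes the shares were 23.5% and 8.23%. In limma with Benjamini-Hochberg adjustment none of the 34 passed 0.05, as none of all genes did (0%), and the smallest adjusted p was 0.0889. At an unadjusted p under 0.05, 12 genes lay lower and 2 higher, against 15.3% and 7.07% of all genes. Of the 2235 other genes, 488 lay lower and 88 higher at that p. With the induced arrays set against 0 the median was -0.18 and 5 genes passed (649 of all genes), and on features measured on all 13 arrays it was -0.24 and 3 passed (170 of all genes). Leaving out the uninduced array of series 2046 left 21 of 32 genes below 0 with a median of -0.27. Leaving out the day 2 array of series 2046 gave 7 genes that passed, all lower, where 690 of all genes passed. Here and below, counts that passed under such alternatives are given without the number tested. They do not show whether members passed more often than all genes.

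Cytochrome c, the small carrier between complexes III and IV, had the largest difference of the 34 genes tested. CYCS stood at -1.21, -1.44 and -0.50 at days 2-3 in series 1332, 1332b and 2046, against 0.28, -0.05 and 1.00 on their uninduced arrays. Every induced value lay under every uninduced one. Set against its own uninduced array, CYCS differed by -1.49, -1.40 and -1.50 in the 3 series. In series 2046 that difference rests mostly on the uninduced value of 1.00, from the array that stood apart, since the induced value there was -0.50. The mean difference was -1.46 (SE 0.31), a 2.76-fold lower ratio, with a limma adjusted p of 0.0889, and its 2 features gave -1.50 and -1.42. A spotted cDNA can also bind related transcripts, which makes CYCS, with its many processed pseudogenes, and close relatives such as PDHA1 and PDHA2 less certain. IRF4 had a difference of -1.59 (SE 0.25) with the same adjusted p.

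Among the complexes of the chain, complex III was lowest. UQCRB, which helps form the ubiquinone site, stood at -1.17, -1.12 and -0.22 at days 2-3, against 0.11, 0.04 and 0.95 uninduced (difference -1.20, SE 0.33, limma adjusted p 0.0901). UQCRC2, a core protein, stood at -0.52, -0.39 and -0.24, against 0.06, -0.10 and 0.25 (difference -0.46, SE 0.22, limma adjusted p 0.241). Neither gene's groups overlapped, and both lay below their own uninduced array in all 3 series. In complex I, 4 of 5 subunits lay below uninduced: NDUFV2, a core subunit that holds an iron-sulfur cluster, by -0.67 (SE 0.26), NDUFAB1, the mitochondrial acyl carrier protein, by -0.52 (SE 0.22), and the accessory subunits NDUFA8 by -0.50 (SE 0.26) and NDUFC2 by -0.23 (SE 0.30). The other subunit, NDUFB7, an accessory subunit, stood at 0.44, 0.43 and 0.35, against -0.32, -0.05 and 0.13, and was the only complex I gene whose induced values all lay above the uninduced ones (difference 0.48, SE 0.22, limma adjusted p 0.215). SDHA, the flavoprotein of complex II, was near its uninduced level (0.26, 0.12 and 0.19, against 0.30, 0.04 and 0.43, difference -0.07, SE 0.23).

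In complex IV the accessory subunit COX7C stood at -0.89, -0.62 and 0.05, against -0.27, 0.08 and 1.02 uninduced (difference -0.76, SE 0.35). The 3 features of COX7C by themselves gave -0.68 to -0.48. The supercomplex factor COX7A2L stood at -0.49, -0.17 and 0.20, against 0.00, 0.29 and 0.74 (difference -0.50, SE 0.29), while COX8A differed by 0.13 (SE 0.35) with 2 uninduced arrays. Of the assembly factors of complex IV, COX14, which acts early in the assembly of subunit COX1, stood at -0.53, -0.60 and -0.07, against 0.49, 0.20 and 0.99 (difference -0.96, SE 0.24, limma adjusted p 0.0889). The groups of COX14 did not overlap. COX17, the copper chaperone, and COX20, a chaperone of subunit COX2, differed by -0.28 (SE 0.20) and -0.31 (SE 0.41, 2 arrays at days 2-3), and COX15, the heme A synthase, by 0.01 (SE 0.32). All but 1 of the 6 ATP synthase genes lay below: coupling factor 6 (ATP5PF) by -0.68 (SE 0.26), subunit g (ATP5MG, 2 uninduced arrays) by -0.65 (SE 0.31), the delta subunit ATP5F1D by -0.55 (SE 0.28), the catalytic beta subunit ATP5F1B by -0.23 (SE 0.26) and the OSCP subunit ATP5PO (2 arrays a group) by -0.15 (SE 0.24). The inhibitory factor ATP5IF1 differed by 0.001 (SE 0.23), and its 2 features gave opposite signs, as did features of ATP5F1B, COX17, COX20, IDH3B and PDHA1.

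All 3 genes tested of the pyruvate dehydrogenase complex lay below uninduced, and the genes of the cycle were split. DLD, the E3 component that pyruvate dehydrogenase shares with other complexes, stood at -0.62, -1.41 and -0.42 at days 2-3, against 0.33 and -0.23 on the 2 uninduced arrays that measured it (difference -0.87, SE 0.33, limma adjusted p 0.168). PDHB, the beta subunit of the E1 component, stood at -0.33, -0.47 and -0.19, against 0.29, 0.13 and 0.81 (difference -0.74, SE 0.22, limma adjusted p 0.104), and PDHA1, its alpha partner, at -0.20, -0.16 and 0.15, against 0.05, 0.07 and 0.50 (difference -0.28, SE 0.22). PDHA2, the testis form of the alpha subunit and a close relative of PDHA1, had a value on 7 arrays, from -1.02 to 1.73, and was not tested in KMS12. In the cycle 5 of 9 genes lay below uninduced. IDH3A stood at -1.04, -1.42 and -0.20, against 0.28, 0.05 and 0.56 (difference -1.18, SE 0.33, limma adjusted p 0.093, 3 features between -1.25 and -1.12). SUCLG2 and SUCLA2, the GTP- and ATP-specific beta subunits of succinate-CoA ligase, differed by -0.90 (SE 0.31) and -0.71 (SE 0.35), and the cytosolic malate dehydrogenase MDH1 by -0.75 (SE 0.31).

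IDH2, the NADP-dependent mitochondrial isocitrate dehydrogenase, had the highest difference of all members, with 0.43 and 1.23 at day 2 in series 1332b and 2046, against -0.07 and -0.62 on their uninduced arrays (difference 1.17, SE 0.37, 2 arrays a group, limma adjusted p 0.123). IDH3G, the gamma subunit of the NAD-dependent enzyme, stood at 0.38, 0.57 and 0.30, against -0.27, 0.07 and 0.20 (difference 0.42, SE 0.26). The induced values of both genes lay above all their uninduced values. The mitochondrial malate dehydrogenase MDH2 differed by 0.18 (SE 0.21), the beta subunit IDH3B by -0.07 (SE 0.21) and citrate synthase (CS) by 0.11 (SE 0.48), each with overlapping groups.

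**Figure D3:**
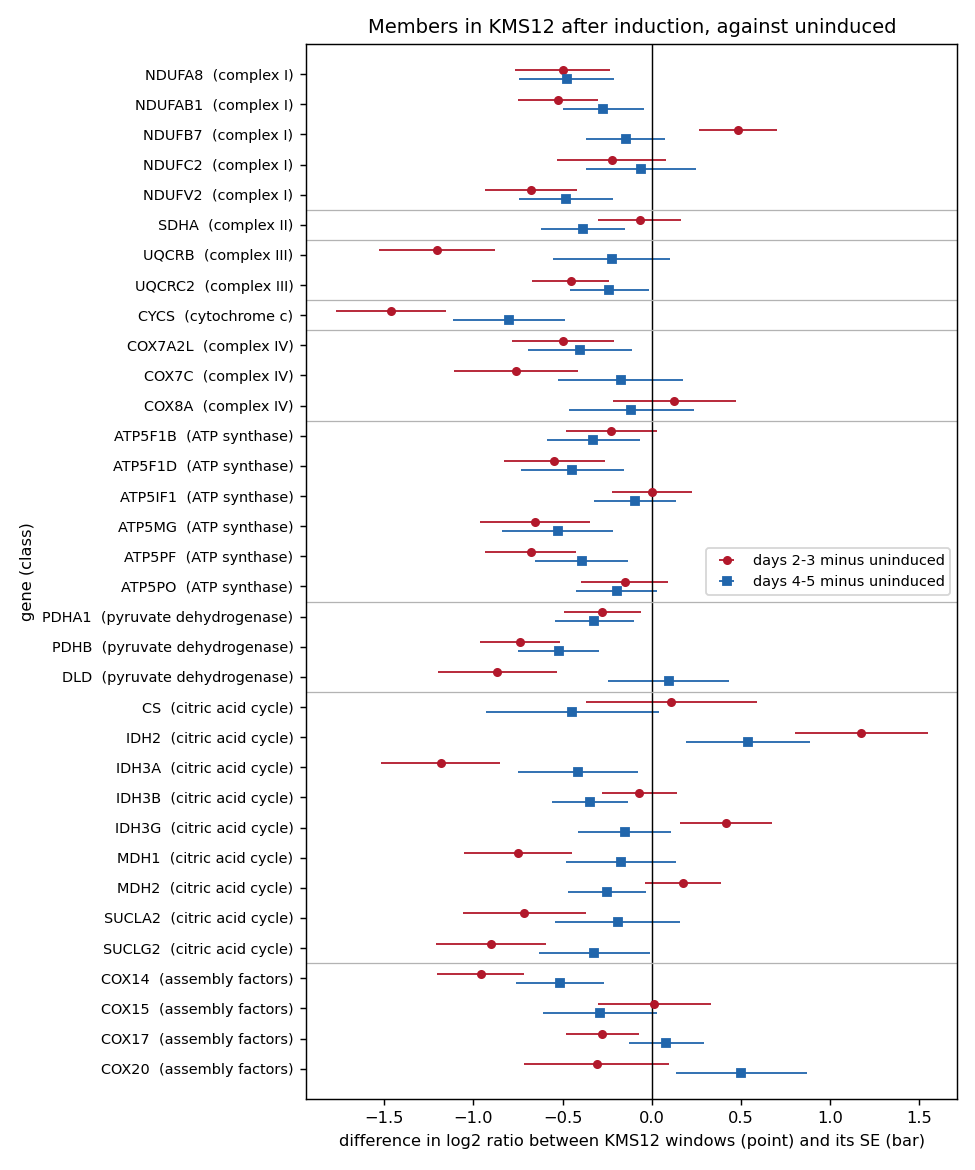
Difference in log2 ratio (horizontal axis) of each of the 34 genes tested in KMS12 (vertical axis, with class), days 2-3 minus uninduced (circles) and days 4-5 minus uninduced (squares). Bars are the SE of the limma fit. CYCS lies at -1.46 at days 2-3 and -0.80 at days 4-5, and IDH2 at 1.17 and 0.54. The 2 features of IDH2 by themselves gave 0.78 and 0.81 at days 2-3.

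Measured within each culture series, more genes lay below than above in all 3, with medians that differed. At days 2-3, 24 of 30 genes lay below their own uninduced array in series 1332 (median -0.48), 21 of 34 in series 1332b (median -0.32) and 26 of 31 in series 2046 (median -0.67). The medians over all genes were 0.00, 0.02 and -0.12, with 49.77%, 48.75% and 58.93% of all genes below. On the day 2 array of series 2046 itself the members' median was -0.01, with 18 of 35 below 0 (49.73% of all genes). Its uninduced array had a member median of 0.56. So the difference in series 2046 rests mostly on that uninduced array, which enters every comparison within that series. Of the 28 members measured on all 6 of these arrays, 16 lay below in every series, against 35.8% of all 3791 genes so measured, and 2 lay above in every series, against 17.2%. The 16 were CYCS, both complex III genes, COX7A2L, COX7C, COX14, NDUFA8, NDUFAB1, NDUFV2, ATP5F1D, ATP5PF, PDHA1, PDHB, IDH3A, MDH1 and SUCLG2, and the 2 were NDUFB7 and IDH3G.

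At days 4-5 the genes still lay mostly below uninduced, with smaller differences. Of 34 genes, 30 lay below 0, against 47.1% of all 6521 genes, with a median of -0.28 against 0.03 for all genes. Of the other genes with a feature on all 13 arrays, 71.2% lay below, with a median of -0.15. The lower values did not overlap the uninduced ones in 6 genes, against 6.42% of all genes, and the higher values in none, against 11%. Among the 2235 other genes with a feature on all 13 arrays these shares were 9.22% and 2.46%. At an unadjusted p under 0.05, 82 of those 2235 lay lower and 20 higher. No gene passed in limma (0% of all genes passed), 2 had an unadjusted p under 0.05 in the lower direction and 0 in the higher, against 1.86% and 3.9% of all genes, and the smallest adjusted p was 0.793. Without the uninduced array of series 2046, 24 of 32 genes lay below, with a median of -0.14, and the median was -0.095 with the induced arrays set against 0 and -0.11 on features measured on all 13 arrays. Against their own uninduced array, 25 of 32 genes lay below in series 1332 (median -0.24), 21 of 35 in series 1332b (median -0.10) and 27 of 31 in series 2046 (median -0.60), against 47.85%, 48.43% and 53.8% of all genes. Of 29 members measured on all 6 arrays, 16 lay below in every series, against 20.9% of all 3873 genes so measured, and 1 lay above, against 13.35%. On the day 4 array of series 2046 itself the members' median was -0.01, with 17 of 34 below 0 (50.94% of all genes).

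CYCS was again the lowest, at -0.22, -0.41 and -0.53 at days 4-5 (difference -0.80, SE 0.31, limma adjusted p 0.793), below its uninduced values in every series. Against its own uninduced array it differed by -0.51 in series 1332, -0.36 in 1332b and -1.53 in 2046, so the mean leans on series 2046. PDHB stood at -0.14, -0.16 and -0.04 (difference -0.52, SE 0.23) and COX14 at -0.03, 0.03 and 0.15 (difference -0.51, SE 0.25), and neither overlapped its uninduced values. ATP5PF, PDHA1 and ATP5PO differed by -0.39 (SE 0.26), -0.32 (SE 0.22) and -0.20 (SE 0.23) and did not overlap either. The complex I subunits NDUFV2, NDUFA8 and NDUFAB1 differed by -0.48 (SE 0.26), -0.48 (SE 0.27) and -0.27 (SE 0.23), SDHA by -0.39 (SE 0.24), ATP5MG by -0.53 (SE 0.31), ATP5F1D by -0.44 (SE 0.29), COX7A2L by -0.40 (SE 0.29) and IDH3B by -0.35 (SE 0.21). All of these overlapped their uninduced values. Above 0 were IDH2 by 0.54 (SE 0.35), COX20 by 0.50 (SE 0.37), DLD by 0.09 (SE 0.34) and COX17 by 0.08 (SE 0.21). Within the days 4-5 window citrate synthase was the most scattered of the genes tested, at 0.44, -1.64 and -0.37, against 0.59, -0.74 and -0.08 uninduced. The complex III genes UQCRB and UQCRC2, at -0.23 (SE 0.33) and -0.24 (SE 0.22), and the other genes of the cycle overlapped their uninduced values too. Both the days 2-3 and the days 4-5 differences use the same uninduced arrays, so they are not independent of each other.

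Between the windows, 21 of 34 genes were higher at days 4-5 than at days 2-3 (52.3% of all 6072 genes), with a median difference of 0.15 against 0.02 for all genes. UQCRB stood at -0.05, 0.32 and 0.16 at days 4-5, against -1.17, -1.12 and -0.22 at days 2-3 (difference 0.98, SE 0.33, limma adjusted p 0.269). DLD stood at 0.39, 0.14 and -0.09, against -0.62, -1.41 and -0.42 (difference 0.96, SE 0.30, limma adjusted p 0.256). IDH3A differed by 0.77 (SE 0.33) and CYCS by 0.66 (SE 0.31). In the opposite direction, NDUFB7 stood at -0.35, -0.19 and -0.13, against 0.44, 0.43 and 0.35 (difference -0.63, SE 0.22, limma adjusted p 0.272), MDH2 at -0.08, -0.55 and 0.04, against 0.23, 0.33 and 0.12 (difference -0.43, SE 0.22), and IDH3G differed by -0.57 (SE 0.26). Values did not overlap in 7 genes that were higher (13.3% of all genes) and in 2 that were lower (10.5%), NDUFB7 and MDH2. None of the 34 passed the threshold, as 0% of all genes did, and at an unadjusted p under 0.05 there were 3 higher and 2 lower, against 9.72% and 4.83% of all genes. Without the day 2 array of series 2046, DLD, IDH3A and UQCRB passed, with limma adjusted p of 0.0408, 0.0397 and 0.0259, where 365 of all genes passed. At day 7, measured on 1 array of series 1332, 20 of 32 genes lay below that series' uninduced array (48.98% of all genes), with a median of -0.12. On the day 7 array CYCS stood at 0.52, IDH3A at 0.22 and IDH2 at -1.93.

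Before induction 29 of 34 genes lay above 0 on average over the 3 uninduced arrays, against 45.9% of all 6696 genes and 71.8% of the other genes with a feature on all 13 arrays. The median was 0.15, close to the 0.13 of those like-measured genes, against -0.03 for all genes. None passed against 0 (0% of all genes), and at an unadjusted p under 0.05 there were 4 higher (COX14, ATP5MG, NDUFV2 and PDHB) and 1 lower (COX20), against 2.17% and 6.11% of all genes. The medians of the genes on the 3 arrays were 0.09, -0.02 and 0.56, with the highest on the array of series 2046, without which the median of the genes' means was 0.06. Any dye effect of a gene stays in such a test against 0, since no dyes were swapped, and cancels where arrays are subtracted.

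In H929 at day 4, measured against 0, DLD and UQCRC2 were lower in the cells with the IRF4 hairpin. Each was measured by 1 feature. With no uninduced H929 array, any dye effect of these genes stays in their values. DLD stood at -1.20 and -1.49 in the 2 arrays (mean -1.34, SE 0.25, a 2.54-fold lower level, limma adjusted p 0.038), and UQCRC2 at -0.67 and -1.04 (mean -0.85, SE 0.19, 1.81-fold lower, limma adjusted p 0.0422). These 2 were the only ones of the 29 genes measured on both arrays that passed, both lower, against 2.43% of all 4858 genes called lower and 0.906% called higher. NDUFB7 stood at 0.40 and 0.95 (mean 0.67, SE 0.18) and just missed the threshold, with a limma adjusted p of 0.0666. On the low side, PDHB stood at -0.47 and -0.74 (limma adjusted p 0.0916), CYCS at -0.70 and -0.79, IDH3A at -0.39 and -1.12, UQCRB at -0.47 and -1.01, and ATP5PF at -0.36 and -0.78. Over all 29 genes, 19 lay below 0 (48.1% of all genes), with a median of -0.17 against 0.02 for all genes. At an unadjusted p under 0.05, 8 were lower and 1 higher, against 14.7% and 8.11% of all genes. Of the 2235 other genes with a feature on all 13 arrays, 55.4% lay below 0, with a median of -0.06. Among those 2235, 472 were lower and 143 higher at an unadjusted p under 0.05, and 91 lower and 18 higher passed. The plasma cell markers had medians of -0.42 and -0.40 on these 2 arrays, with 6 of 9 below 0, and the T cell markers 0.17 and 0.43, with 6 of 6 above 0, and their part in the result was not tested. The spread behind the test comes from the 4 groups with more than 1 array, KMS12 included. The call of DLD was lost without the day 4 KMS12 array of series 1332b or of series 2046 (limma adjusted p 0.053 and 0.0579), and that of UQCRC2 without either of those, any of the 3 uninduced arrays or the day 3 array (limma adjusted p 0.0524 to 0.0591). Without 1 of the H929 arrays the adjusted p of both genes lay between 0.157 and 0.611.

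**Figure D4:**
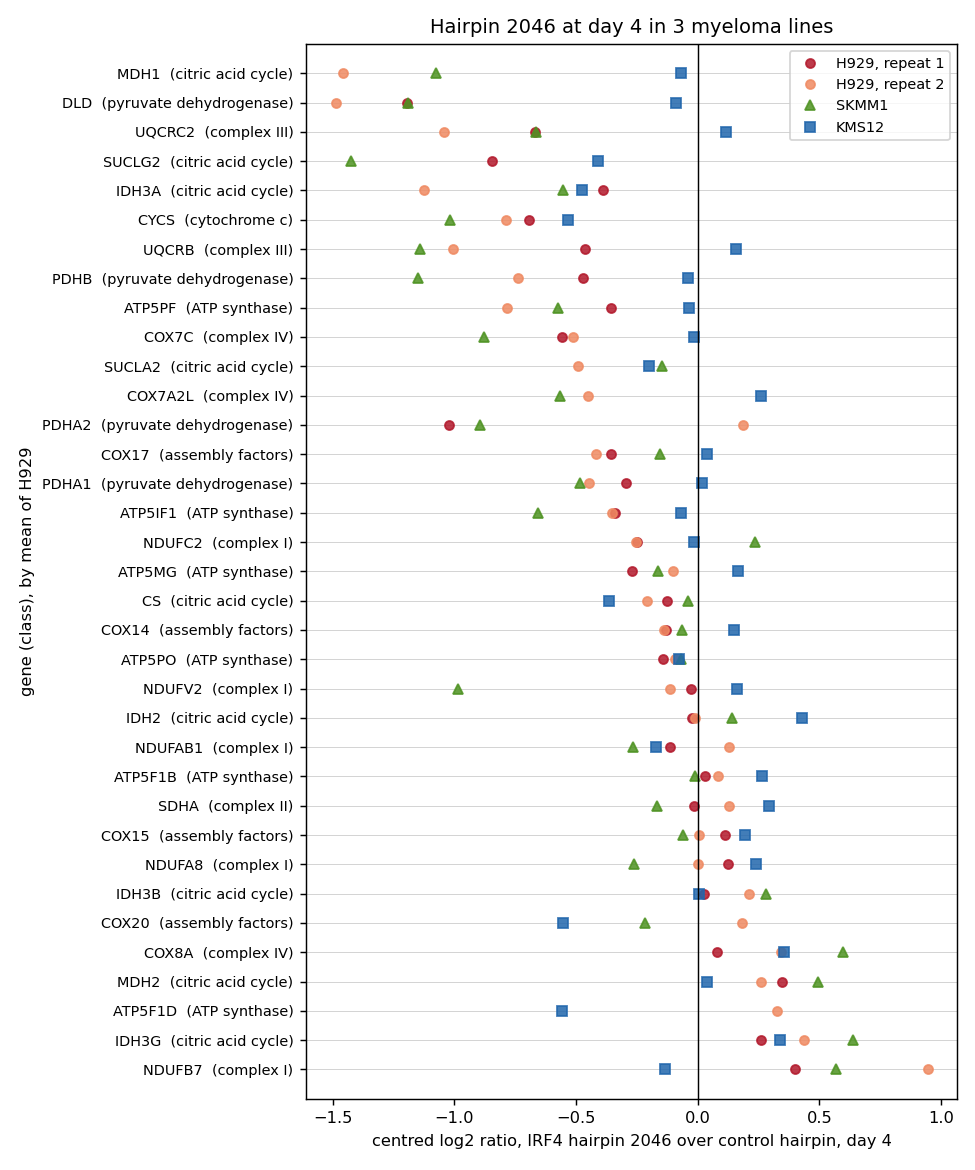
Centred log2 ratio (horizontal axis) of each gene (vertical axis, ordered by its mean in H929) for hairpin 2046 at day 4 in H929 (2 repeats, circles), SKMM1 (triangles) and KMS12 (squares). DLD stands at -1.20 and -1.49 in H929 and -1.19 in SKMM1 but at -0.09 in KMS12, and CYCS lies below 0 on all 4 arrays.

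Set against KMS12 at days 4-5, H929 was lower in 17 of 28 genes (51.1% of all 4758 genes), with a median difference of -0.19 against -0.01 for all genes. Of the other genes with a feature on all 13 arrays, 55.97% were lower, with a median of -0.07. DLD stood at -1.20 and -1.49 in H929, against 0.39, 0.14 and -0.09 in KMS12 (difference -1.49, SE 0.33, limma adjusted p 0.135), and UQCRC2 at -0.67 and -1.04, against -0.34, -0.27 and 0.12 (difference -0.69, SE 0.24, limma adjusted p 0.243). NDUFB7 stood at 0.40 and 0.95, against -0.35, -0.19 and -0.13 (difference 0.90, SE 0.24, limma adjusted p 0.158), and MDH2 at 0.35 and 0.26, against -0.08, -0.55 and 0.04 (difference 0.50, SE 0.23). The values did not overlap in 12 genes that were lower in H929 (23.3% of all genes) and 3 that were higher (17.6%), NDUFB7, MDH2 and IDH3B. None of the 28 passed in limma, where 0.042% of all genes did, and at an unadjusted p under 0.05 there were 4 lower and 1 higher, against 9.27% and 5.15%. So DLD and UQCRC2, which passed against 0 in H929, were not shown to differ between the lines. IRF4 itself differed by -1.18 between H929 and KMS12 at days 4-5 (SE 0.27, limma adjusted p 0.135), and hairpins and days also differ in part between these groups, so line and depth of silencing cannot be told apart.

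With the same hairpin and day in 3 lines, 1 value a line, 23 of 33 genes lay below 0 (50.6% of all 5134 genes), with a median of -0.19 against -0.01 for all genes. Of the other genes with a feature on all 13 arrays, 55.84% lay below 0, with a median of -0.05. CYCS stood at -0.53 in KMS12, -0.74 as the mean of H929 and -1.02 in SKMM1 (mean -0.76, SE 0.18, limma adjusted p 0.278). SUCLG2 stood at -0.41 in KMS12, -0.85 in H929 (1 array) and -1.43 in SKMM1, the lowest value of any member there (mean -0.90, SE 0.23). IDH3A (mean -0.60, SE 0.17), DLD (-0.87, SE 0.28), MDH1 (-0.87, SE 0.28, 1 H929 array) and PDHB (-0.60, SE 0.24) were also below 0 in all 3 lines, though KMS12 was close to 0 for DLD, MDH1 and PDHB. Above 0 in all 3 lines were IDH3G (0.44, SE 0.17), COX8A (0.39, SE 0.18), MDH2 (0.28, SE 0.18) and IDH3B (0.13, SE 0.17). For MDH2 and IDH3B the KMS12 value was close to 0 (0.04 and 0.003). In all, 12 genes were below 0 in every line and 4 above, against 19.8% and 21.3% of all genes. None passed (0% of all genes did), and at an unadjusted p under 0.05 there were 6 lower and 1 higher, against 9.19% and 5.94%. Without KMS12, the fit of the other 2 lines had 7 genes that passed, all lower, where 616 of all genes passed. In SKMM1 alone 27 of 34 genes lay below 0 (48.54% of all genes), NDUFV2 at -0.99 and UQCRB at -1.14 among them. The 2 H929 arrays had NDUFV2 at -0.03 and -0.12.

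Over all 10 induced arrays, no gene of the pathway lay below 0 on every array that measured it, as IRF4 did, and 4 lay below 0 on all but 1: CYCS, UQCRC2 and PDHB on 9 of 10 and SUCLG2 on 8 of 9. Of all 4712 genes measured on at least 8 induced arrays 9.93% did so, against 4 of 34 members (11.8%), so this share was near that of all genes. The exceptions were the day 7 array for CYCS (0.52) and PDHB (0.01), the KMS12 day 4 array of series 2046 for UQCRC2 (0.12) and that of series 1332b for SUCLG2 (0.22). No gene of the pathway lay above 0 on all but 1 or all of its induced arrays, against 8.23% of all genes so measured.

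Some partner genes of the same enzyme or reaction had unlike ratios on many arrays. IDH3A, IDH3B and IDH3G encode the 3 kinds of subunit of the NAD-dependent isocitrate dehydrogenase. On the same array, the log2 ratio of IDH3A minus that of IDH3G was -1.42, -1.996 and -0.50 at days 2-3, against 0.54, -0.02 and 0.36 uninduced, and it was -0.65 and -1.56 in H929, -1.19 in SKMM1 and -0.81 in KMS12 with hairpin 2046 at day 4. It was above 0 in series 1332 at day 5 (0.31) and day 7 (0.57) and in series 1332b at day 4 (0.60). In H929 the 3 features of IDH3A differed widely, with means from -1.38 to -0.245. IDH3B stayed nearer to IDH3G, between -0.39 and 0.32 over the 10 induced arrays. MDH1 minus MDH2 was -0.56, -1.02 and -0.19 at days 2-3, against 0.14, 0.16 and 0.72 uninduced, and -1.72 in H929 (1 array) and -1.57 in SKMM1, but 1.21 in series 1332b at day 4 and 1.19 at day 7. DLD minus PDHA1 was -0.41, -1.25 and -0.57 at days 2-3 in KMS12, against 0.28 and -0.30 uninduced, and 0.74, 0.16 and -0.11 at days 4-5. It was -0.90 and -1.04 in H929 and -0.71 in SKMM1. These pairs were picked after their values were known, and the gaps carry no test. Subtracting 1 median per array leaves them as they are, and centring within classes of measurement can move them. By the median over the induced arrays, IDH3A minus IDH3G was furthest from 0 among these pairs (-0.73), followed by DLD minus PDHA1 (-0.49). MDH1 minus MDH2 had a median of -0.19 (-1.72 to 1.21), so its median did not set it apart from the pairs that follow. The median was 0.04 for UQCRB minus UQCRC2 (-0.73 to 0.75) and -0.16 for PDHB minus PDHA1 (-0.66 to 0.22). For SUCLG2 minus SUCLA2 it was -0.22 (-1.28 to 0.53).

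**Figure D5:**
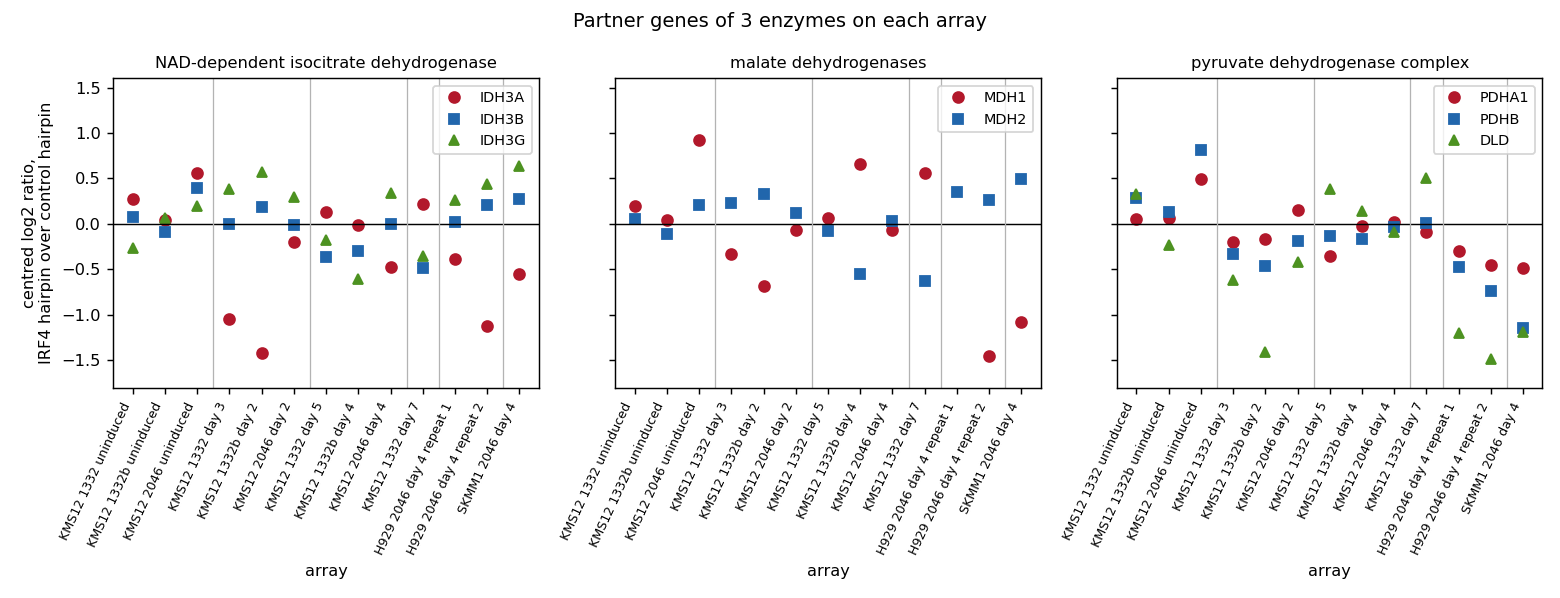
Centred log2 ratios (vertical axis) on each array (horizontal axis) of IDH3A, IDH3B and IDH3G (left), of MDH1 and MDH2 (middle) and of PDHA1, PDHB and DLD (right). IDH3A lies below IDH3G on all arrays of days 2-3, H929 and SKMM1, with gaps between -0.50 and -1.996, and above it in KMS12 at day 7.

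The start regions of the 3 IDH3 genes are shown because these partners had unlike ratios. Each sequence runs 5′ to 3′ across the start of the gene, from RefSeq on GRCh38.p14, with matches to the motifs searched in capitals.
IDH3A (chr15:78149112-78149411, plus strand): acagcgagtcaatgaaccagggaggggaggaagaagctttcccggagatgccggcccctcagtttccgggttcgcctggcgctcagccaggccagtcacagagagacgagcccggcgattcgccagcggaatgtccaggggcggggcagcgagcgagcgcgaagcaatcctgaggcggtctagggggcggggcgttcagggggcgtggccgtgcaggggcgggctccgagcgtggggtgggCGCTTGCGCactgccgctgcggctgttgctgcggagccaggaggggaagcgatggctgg
IDH3B (chr20:2664167-2664466, minus strand): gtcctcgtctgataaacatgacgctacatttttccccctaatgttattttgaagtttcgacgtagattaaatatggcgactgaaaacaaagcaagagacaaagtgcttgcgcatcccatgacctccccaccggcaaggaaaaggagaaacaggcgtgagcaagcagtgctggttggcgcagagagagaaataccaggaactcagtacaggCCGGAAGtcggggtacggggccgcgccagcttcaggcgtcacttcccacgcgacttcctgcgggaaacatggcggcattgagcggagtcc
IDH3G (chrX:153794326-153794625, minus strand): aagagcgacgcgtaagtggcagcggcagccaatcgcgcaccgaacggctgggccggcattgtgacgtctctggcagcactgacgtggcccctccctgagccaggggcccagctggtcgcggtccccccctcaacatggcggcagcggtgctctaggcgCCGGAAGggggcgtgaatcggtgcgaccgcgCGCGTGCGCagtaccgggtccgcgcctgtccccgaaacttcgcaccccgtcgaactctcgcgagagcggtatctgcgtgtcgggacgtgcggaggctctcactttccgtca
IDH3A holds a match to the core of the site of NRF1, a transcription factor known for driving nuclear genes of the respiratory chain, IDH3B holds a match to the core bound by ETS factors such as GABP, and IDH3G holds one of each. Over the pathway, 31 of the 35 genes had such a region in the RefSeq table. The NRF1 core (GCGCANGCG, both strands) was in 9 of them (29.0%), against 8.05% of all 27305 regions and 11.02% of the 15843 of protein-coding genes. The ETS and GABP core (CCGGAAG) was in 10 (32.3%), against 10.7% and 14.2%. The MYC E-box CACGTG was in COX14 and PDHB alone (6.45%, against 7.44% and 8.88%). The interferon response core GAAANNGAA was in 3 (9.68%, against 8.29% and 7.06%), ATP5PF, ATP5PO and PDHA2, and the ETS-IRF composite core GGAANNGAA, which can overlap it, in 3 (9.68%, against 7.84% and 7.39%), ATP5MG, MDH2 and NDUFAB1. In all, 13 of the 31 windows held no match to any of the 5 motifs, those of CYCS, DLD and UQCRC2 as well as that of IDH2, the gene with the highest difference. A match is a match of letters only.

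Other genes that feed or serve the pathway lay on both sides of 0, with the lowest values among those of entry and side reactions. Of 24 listed genes of entry and side reactions, 11 were tested in KMS12, of which 6 lay below uninduced at days 2-3 and 9 at days 4-5 (medians -0.30 and -0.28). At an unadjusted p under 0.05, 4 were lower and 1 higher at days 2-3, against the 15.3% and 7.07% of all genes. Of 10 tested in H929, 8 lay below 0 (median -0.35, 48.1% of all genes). In the lower direction, 4 had an unadjusted p under 0.05 (14.7% of all genes), and 1 passed (2.43% of all genes called lower). That gene was GLUD1, the glutamate dehydrogenase that supplies 2-oxoglutarate to the cycle (-0.93 and -0.72 in H929 against 0, mean -0.82, SE 0.17, limma adjusted p 0.0422). It stood at -1.10 in SKMM1 and at -0.19, -0.37 and -0.32 at days 2-3 in KMS12, against 0.32, -0.08 and 0.43 uninduced (limma adjusted p 0.172). Its call was lost without either H929 array (limma adjusted p 0.279 to 0.543) and without the uninduced or the first induced array of series 1332, the uninduced array of series 2046 or the day 4 array of series 1332b or 2046 (0.0514 to 0.0591). The mitochondrial malic enzyme ME2 had the lowest value of the list at days 2-3, -0.89, -2.27 and -0.75, against 0.58, -0.46 and 0.85 uninduced (difference -1.63, SE 0.42, limma adjusted p 0.0901), and was at -0.76 (SE 0.43) at days 4-5. PDHX, the E3-binding protein that holds DLD in the pyruvate dehydrogenase complex, differed by -1.51 (SE 0.54) at days 2-3 and stood at -1.13 and -1.17 in H929 (limma adjusted p 0.17). IDH1, the cytosolic isocitrate dehydrogenase, differed by -1.16 (SE 0.39) at days 2-3 and had a mean of -1.05 in H929 (limma adjusted p 0.0985). Of 14 carriers and pores 3 were tested in KMS12, the adenine nucleotide carrier SLC25A5 at a difference of -0.48 (SE 0.24) at days 4-5, the aspartate-glutamate carrier SLC25A13 at 0.68 (SE 0.37) and UCP2, an uncoupling protein, at -0.22 (SE 0.27). UCP2 lay on the other side of 0 at days 2-3 (0.47, SE 0.27) and in H929 (0.80, SE 0.23, limma adjusted p 0.0732). Of 23 genes of assembly and regulation 10 were tested, with a median of 0.01 at days 2-3 and 0.03 at days 4-5, led at days 4-5 by the protease subunit SPG7 (0.52, SE 0.24) and the import protein TIMM44 (-0.43, SE 0.21). At days 2-3, and named after their values were seen, LRPPRC, which stabilises mitochondrial mRNAs, differed by -1.16 (SE 0.58), with 2 arrays a group. TFAM, which packages mitochondrial DNA and starts its transcription, differed by -0.77 (SE 0.30, limma adjusted p 0.17) at days 2-3 and by -0.10 (SE 0.31) at days 4-5. The transcription factors NRF1 and GABPB1 differed by 0.24 (SE 0.28) and 0.17 (SE 0.31) at days 4-5. Of 6 mitochondrial antioxidant genes 3 were tested, at differences of 0.14 to 0.69 at days 2-3, with the peroxidase GPX1 highest (SE 0.28, limma adjusted p 0.205), and of 0.01 to 0.05 at days 4-5. None of these passed in KMS12.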

How the data were processed

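The deposited values are log ratios, taken here as log2, of 15246 features on 13 arrays. Their base, normalization and background correction, and how the authors chose blank spots, were not given in the sources used here. Values ran from -9.78 to 7.51, column medians from -0.076 to 0.012, and 7140 to 14228 features were measured per array. The direction, IRF4 hairpin (Cy5) over shluc (Cy3), follows the dyes that the labels state for every array, with no dye swap. The lowest correlation between 2 arrays was -0.33, between the uninduced array of series 2046 and SKMM1. The orientation of these arrays was not tested otherwise. The dyes stated in the labels were kept, and the members' counts and medians against the uninduced arrays are also given without that array. Array intensities were not used here, so precision is limited by the number of arrays, and how often a feature was measured stands in for its brightness.

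Platform symbols were updated by gene identifier to RefSeq GRCh38.p14 names: 10169 features had 1 symbol, 4 several and 5073 none, and 10128 were found. The 10396 features with values on 7 or more arrays were centred on each array's median and averaged per gene, which gave 3841 named genes and 3107 unnamed features. Group means (6) were fitted over 13 arrays by lmFit and eBayes of limma 3.58.1 under R 4.3.3 (two-sided tests, Benjamini-Hochberg over all genes tested, threshold 0.05), for genes with at least 2 arrays in each window compared; groups of 1 array share the spread. Hairpin 2046 in 3 lines was a separate fit of 1 value a line. The fit was tested on simulated data. Members and lists were chosen with earlier results of these data known. Full statistics were given by rule: members past the threshold, up to 3 per class with the smallest p at days 4-5, the lowest and highest in each comparison, and up to 2 genes per other list; the rest of the members are given for completeness. Alternatives changed the features admitted, the centring, the averaging of features, the baseline and the arrays included, and used the culture series as a block. Arrays of the same series deviated together weakly between uninduced and days 2-3 (correlations of 0.112, 0.211 and 0.19). The same held between uninduced and days 4-5 (0.135, 0.126 and 0.147). The main fit did not pair the series, so the SE and p-values given for KMS12 are unpaired. Pairing by series, which the labels name, entered only the differences within series and the block alternative. Between days 2-3 and days 4-5 they did not all do so (0.362, -0.076 and -0.04).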

Additional observations from a re-analysis of the deposited data

Results flagged for a closer look

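NDUFB7 lay above 0 on all arrays of one group and below 0 on all arrays of the other in 2 comparisons. H929 minus KMS12 at days 4-5 differed by 0.90 (limma adjusted p 0.158), and KMS12 days 4-5 minus days 2-3 by -0.63 (limma adjusted p 0.272). COX17 did the same in the opposite direction, with H929 minus KMS12 at days 4-5 at -0.56 (limma adjusted p 0.274) and days 4-5 minus days 2-3 at 0.36 (limma adjusted p 0.428), and its features gave opposite signs at days 4-5 against uninduced. ATP5MG lay below 0 in H929 and above 0 in KMS12 at days 4-5, a difference of -0.42 (limma adjusted p 0.546). None of these differences passed the test. With groups of 1 to 3 arrays, no array could be tested as an outlier within its group.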

How the results depend on the processing

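Every alternative kept the sign of the members' median in all comparisons. Counts that passed under alternatives are given without the number tested, so they do not show whether members passed more often than all genes. At days 2-3 against uninduced, where no member passed, 5 passed with the induced arrays set against 0 (median -0.18; 649 of all genes) and 3 on features measured on all 13 arrays (median -0.24; 170 of all genes). Leaving out 1 array gave 0 to 7 members and medians of -0.59 to -0.27, with the 7 (CYCS, UQCRB, IDH3A, COX14, SUCLG2 and PDHB among them) without the day 2 array of series 2046. At days 4-5 against uninduced no alternative gave a call, and medians were -0.095 with the induced arrays against 0, -0.11 on features measured on all 13 arrays and -0.41 to -0.14 without 1 array. Between the windows 0 to 3 members passed without 1 array, with medians of 0.10 to 0.27.

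In H929 against 0, 4 members passed on features measured on all 13 arrays (3 lower, 1 higher; median -0.11; 383 of all genes). The median was -0.11 for features on at least 10 arrays, -0.22 without centring and -0.094 when centred within classes of measurement. Leaving out 1 array gave 0 to 2 calls and medians of -0.20 to -0.13. NDUFB7 passed under 4 alternatives, with adjusted p of 0.00868 to 0.0429. Against KMS12 at days 4-5, 1 member (NDUFB7) passed on features measured on all 13 arrays (median -0.083; 60 of all genes). In 3 lines, 0 to 7 members passed without 1 array, the 7 without KMS12 (616 of all genes), with medians of -0.22 to -0.13. Medians without 1 array ran from -0.22 to -0.12 for H929 against KMS12, where 0 members passed, and from 0.06 to 0.30 for the uninduced arrays.

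With the culture series as a replicate block no call changed in the 3 KMS12 comparisons, where 0 members passed (medians -0.49, -0.31 and 0.15), and CYCS, COX14 and UQCRB had a limma adjusted p of 0.0613 at days 2-3. Over 3174 values of single members under alternatives, 77 changed sign, 0 of them as called values, 12 lost the threshold and 31 gained it. Depth could not be judged without intensities.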
